A study of Homo sapiens with 2 samples.

Results

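This account covers 59 genes of protein folding and quality control in the endoplasmic reticulum (ER), chosen by symbol from the 25343 gene entries measured in Huh7 cells, an established liver cancer line. By function they comprise 19 genes of folding, 13 of disulfide formation (oxidation), 11 of translocation into the ER and 16 of ER-associated degradation. Cells were seeded at 500000 per well and spent 6 days in medium with 0.45 g/L glucose (low glucose) or 4.5 g/L glucose (high glucose). Live cells were passed on whenever a well filled. Both media received cells of the same line, with no genetic change named, with 1 library sequenced from each. Levels are in TPM (transcripts per 1000000), which correct for transcript length and can therefore be compared between genes.

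Secreted and membrane proteins enter the ER through the SEC61 channel, are folded there by chaperones and gain disulfide bonds from protein disulfide isomerases. Chains that fail to fold are drawn back into the cytosol, tagged with ubiquitin and degraded, a route called ERAD. Hepatocytes and lines derived from them secrete plasma proteins in bulk, and N-linked glycosylation of those proteins in the ER draws on sugar precursors made from glucose.

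The labelled cell type was checked on 10 hepatocyte and hepatoma markers, all of which were measured. Their summed level was 35433 TPM in low and 41212 TPM in high glucose. The largest part was AFP (16441 and 20859 TPM), with albumin (ALB) at 7997 and 8528 TPM. Of the 10, 4 were higher and 6 lower in low glucose. The widest differences were TTR, at 682 TPM in low and 1351 TPM in high glucose, and FGB, at 927 and 617 TPM. The sum over 6 fibroblast markers was 40.6 TPM in low and 30.3 TPM in high glucose, most of it from COL1A2 (24.6 and 18.7 TPM). All 4 fibroblast markers with a mean of at least 1 TPM were higher in low glucose, and COL1A1 (collagen type I) was more than 2-fold higher, at 4.03 TPM in low and 1.06 TPM in high glucose. DCN, another defining marker, stood at 0.07 TPM in both libraries. The sum over 4 endothelial markers was 2.19 and 2.14 TPM in low and high glucose, with KDR at 0 in both libraries. The sum over 5 leukocyte markers was 201 TPM in low and 555 TPM in high glucose, most of it from LYZ (lysozyme; 198 and 550.3 TPM), with the defining marker PTPRC at 0.50 and 0.83 TPM. The part of other cell types in the results below was not tested. The number of reads behind the values is not given, so depth and counting error are unknown. With 1 library per medium no difference has a replicate check, and no p-value is given.

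Of the 59 genes, 58 had a mean of at least 1 TPM over both libraries and were compared. DERL3, a derlin of the ERAD channel, was listed at 0 in both libraries. Each difference is log2(TPM + 1) in low glucose minus that in high glucose; for weakly expressed genes this scale shrinks the change. The 2-fold rule is met by a difference of 1 or more (higher) or of -1 or less (lower). By this rule 13 of 58 (22.4%) were higher in low glucose, beside a background of 502 of 13745 genes compared (3.65%). The members were chosen with earlier results of these data known, so their contrast with all genes cannot be told apart from that choice. None was at least 2-fold lower, beside 151 of all genes (1.10%). With trimmed-mean scaling the calls among all genes were 403 higher and 202 lower. At 1.5-fold, 28 of the 58 were higher, beside a background of 13.0%, and none was lower, beside 6.07%. At 3-fold, HSPA5 and HERPUD1 were higher, 2 of the 58 beside a background of 0.866%, and none was lower, beside 0.160%. The median difference was 0.50 over the 58 and 0.05 over all genes. Of the 58, 46 (79.3%) lay above 0, beside 7498 of the 13745 genes compared (54.6%). The count among the 58 was 45 to 48 under the 4 scalings tried, and 52 with the median of genes of like mean TPM subtracted. Together the 59 genes made up 2.06% of all TPM in low glucose and 1.23% in high glucose. In bulk RNA, more cells with a transcript and more transcript per cell cannot be told apart.

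**Figure D1:**
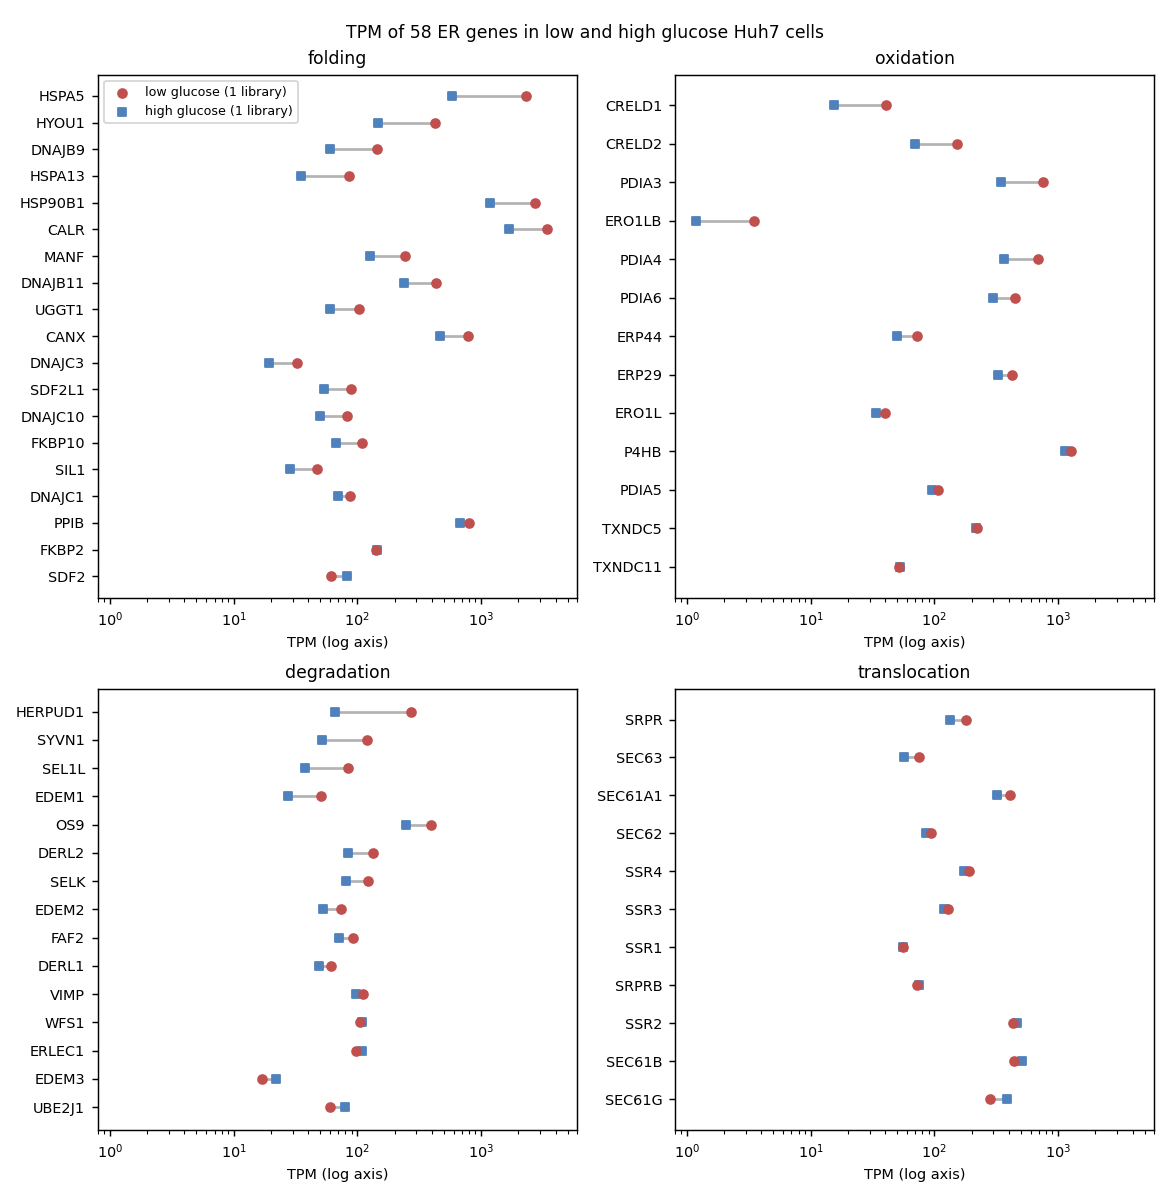
TPM of the 58 compared genes (log axis) in the low glucose library (circles) and the high glucose library (squares), by function and ordered by difference. The widest gaps belong to HSPA5 (2316 and 585 TPM) and HERPUD1 (269.8 and 66.2 TPM), while the translocation genes lie closest to equal.

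The largest positive differences among the 59 belonged to HERPUD1, HSPA5 and HYOU1. HERPUD1, a membrane protein that organises the ERAD ligase complex (hg19 chromosome 16, 56966002 to 56977793), stood at 269.8 TPM in low and 66.2 TPM in high glucose. Its log2 difference of 2.01 was the 61st largest of the 13745 genes. HSPA5 (BiP, the HSP70 chaperone of the ER; hg19 chromosome 9, 127997127 to 128003666) stood at 2316 TPM in low and 585 TPM in high glucose, a difference of 1.98 and the 64th largest. HYOU1, a large HSP70-related protein that exchanges nucleotide on BiP (hg19 chromosome 11, 118914896 to 118927957), stood at 421 TPM in low and 146 TPM in high glucose (1.52, the 137th largest). The next member in order, CRELD1, stood at 1.33.

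The promoters of these 3 genes are shown because each holds a known ER stress element. The windows run from 250 bases before to 50 bases after the annotated start, 5′ to 3′ on the strand of the gene, from RefSeq on GRCh38.p14. The motifs searched, on both strands, were ERSE (CCAAT, then 9 bases of any kind, then CCACG), ERSE-II (ATTGG, then 1 base of any kind, then CCACG), UPRE (TGACGTGG) and CARE (TTGCATCA), and capitals mark every match. HERPUD1 lies at chr16:56931892-56932191 (+), HSPA5 at chr9:125241294-125241593 (-) and HYOU1 at chr11:119057156-119057455 (-).
HERPUD1: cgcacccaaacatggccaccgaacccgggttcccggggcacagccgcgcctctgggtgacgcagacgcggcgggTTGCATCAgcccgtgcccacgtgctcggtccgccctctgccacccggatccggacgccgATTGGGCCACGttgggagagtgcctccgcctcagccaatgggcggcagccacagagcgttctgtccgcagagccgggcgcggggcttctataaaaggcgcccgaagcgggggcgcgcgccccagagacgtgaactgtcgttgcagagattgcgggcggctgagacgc
HSPA5: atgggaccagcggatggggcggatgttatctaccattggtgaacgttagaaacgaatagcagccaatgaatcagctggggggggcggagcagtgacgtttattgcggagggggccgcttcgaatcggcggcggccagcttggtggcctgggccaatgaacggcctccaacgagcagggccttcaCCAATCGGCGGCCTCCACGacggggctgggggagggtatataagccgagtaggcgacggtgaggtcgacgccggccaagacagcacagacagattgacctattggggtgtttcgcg
HYOU1: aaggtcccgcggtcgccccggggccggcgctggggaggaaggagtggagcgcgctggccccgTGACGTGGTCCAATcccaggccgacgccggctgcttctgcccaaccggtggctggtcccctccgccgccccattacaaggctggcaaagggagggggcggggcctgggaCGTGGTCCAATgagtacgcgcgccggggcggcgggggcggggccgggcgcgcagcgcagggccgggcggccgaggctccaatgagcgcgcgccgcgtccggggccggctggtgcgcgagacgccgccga
In HERPUD1 the capitals are a CARE, 176 to 169 bases before the start, and an ERSE-II, 117 to 107 bases before it. In HSPA5 they are an ERSE, 66 to 48 bases before the start. In HYOU1 they are ERSE-II on the opposite strand, 185 to 175 and 79 to 69 bases before the start, and a UPRE, 188 to 181 bases before it, that overlaps the farther ERSE-II.

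Folding genes showed the highest median of the 4 functions, 0.74 over 19 genes. Of these, 17 (89.5%) lay above 0, beside 54.6% of all genes compared. Past 2-fold upward were 6 (31.6%), beside 3.65% of all genes, and downward none, beside 1.10%. The most abundant was CALR (calreticulin, a soluble chaperone that binds glucose-capped N-glycans), at 3419 TPM in low and 1676 TPM in high glucose (1.03). This put it at the top of all 59 genes in both libraries, but only just past 2-fold, and upper-quartile, median-of-ratios and trimmed-mean scaling left it short (0.94 to 0.98). HSP90B1 (GRP94, the HSP90 chaperone of the ER) followed at 2742 TPM in low and 1175 TPM in high glucose (1.22). DNAJB9, a J protein that steers BiP to its clients, stood at 145 and 59.7 TPM in low and high glucose (1.26). Its interval overlaps that of THAP5 (26.2 TPM in low and 20.3 TPM in high glucose), and whether the counting used strand is not given. HSPA13, an HSP70-like protein of the ER, stood at 85.1 TPM in low and 35.1 TPM in high glucose (1.25).

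BiP works in a cycle with J proteins, which stimulate its ATPase, and with exchange factors. The other J proteins stood within 2-fold: DNAJB11 at 430.0 TPM in low and 239 TPM in high glucose (0.84), DNAJC3 at 32.6 and 19.3 TPM (0.72), and DNAJC10, which is also a disulfide reductase, at 82.4 and 50.1 TPM (0.71). DNAJC1 was nearest to level, at 87.6 TPM in low and 70.3 TPM in high glucose (0.31). The 5 J proteins summed to 777 TPM in low and 439 TPM in high glucose, so that HSPA5 stood at 2.98 times their sum in low and 1.33 times in high glucose. SIL1, the second exchange factor, stood at 46.7 TPM in low and 28.5 TPM in high glucose (0.70). MANF, a secreted factor that binds BiP, stood at 244 TPM in low and 127 TPM in high glucose (0.94). SDF2L1, a partner of DNAJB11, stood at 88.6 TPM in low and 53.3 TPM in high glucose (0.72), while its relative SDF2 went the other way, at 60.8 TPM in low and 82.7 TPM in high glucose (-0.44).

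In the calnexin cycle, which retains glycoproteins until they are folded, all members lay above 0. CANX (calnexin, the membrane-bound counterpart of calreticulin) stood at 778 TPM in low and 465 TPM in high glucose (0.74). UGGT1, which puts a glucose back on the glycans of unfolded proteins, stood at 104 TPM in low and 60.6 TPM in high glucose (0.77). With PDIA3 and CALR, these genes summed to 5054 TPM in low and 2547 TPM in high glucose. Among the prolyl isomerases, PPIB (cyclophilin B) differed less, at 792 TPM in low and 677 TPM in high glucose (0.23). FKBP2 was level at 142 TPM in low and 144 TPM in high glucose (-0.02). FKBP10, known for its part in collagen folding, came close to CANX, at 109 TPM in low and 67.0 TPM in high glucose (0.70).

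Oxidation genes had a median of 0.53 over 13 genes. Of these, 12 (92.3%) lay above 0, beside 54.6% of all genes compared, and 4 (30.8%) were at least 2-fold higher, beside 3.65%. The 9 genes of the disulfide isomerase family among them had a median of 0.38, with 1, PDIA3, at least 2-fold higher (11.1%). CRELD1, CRELD2 and ERO1LB, which also met the rule, lie outside that family. PDIA3 (ERp57, the isomerase that serves calnexin and calreticulin; hg19 chromosome 15, 44038590 to 44064804) stood at 753 TPM in low and 345 TPM in high glucose (1.12). P4HB (PDI itself, and a subunit of collagen prolyl hydroxylase) was the most abundant of this function in both libraries, yet nearly level at 1282 TPM in low and 1139.7 TPM in high glucose (0.17). PDIA3 therefore stood at 0.587 times P4HB in low glucose and 0.303 times in high glucose. CRELD2, a secreted ER stress protein, stood at 153 TPM in low and 69.4 TPM in high glucose (1.13). Its membrane-bound relative CRELD1 stood at 40.6 TPM in low and 15.6 TPM in high glucose (1.33), the largest difference of the function. ERO1LB, the oxidase known mainly from pancreas, met the rule from a very low level, 3.46 TPM in low and 1.18 TPM in high glucose (1.03). With a pseudocount of 5 its difference was 0.45, and upper-quartile, median-of-ratios and trimmed-mean scaling also left it short of 2-fold.

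The other isomerases ranged from just short of 2-fold to level. PDIA4, with several thioredoxin domains, stood at 687 TPM in low and 367 TPM in high glucose (0.90), and PDIA6 at 451 and 296 TPM (0.61). ERP44, which returns escaped proteins from the Golgi, stood at 71.8 TPM in low and 49.4 TPM in high glucose (0.53), and ERP29 at 422 and 325 TPM (0.38). ERO1L, the broadly expressed oxidase that recharges PDI, stood at 39.8 TPM in low and 34.0 TPM in high glucose (0.22). PDIA5 (107 and 95.7 TPM in low and high glucose), TXNDC5 (223 and 217 TPM) and TXNDC11 (51.9 and 53.2 TPM) differed by 0.15, 0.04 and -0.04. TXNDC5 shares its interval with the read-through entry BLOC1S5-TXNDC5, so its level is uncertain.

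Degradation genes had a median of 0.48 over the 15 compared, with 11 above 0 and 3 at least 2-fold higher. Beside HERPUD1, the 2 genes at the centre of the ERAD ligase met the rule. SYVN1 (HRD1, the ubiquitin ligase) stood at 120.2 TPM in low and 51.5 TPM in high glucose (1.21), and SEL1L, the adaptor that brings substrates to it, at 84.3 TPM in low and 37.9 TPM in high glucose (1.13). The ratio of SYVN1 to SEL1L was close in the libraries, 1.43 in low and 1.36 in high glucose. The interval of SYVN1 overlaps that of MRPL49, which went the other way (27.2 TPM in low and 44.7 TPM in high glucose).

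The lectins and mannosidases that pick out glycoproteins for ERAD pointed both ways. OS9, the most abundant degradation gene, stood at 390.2 TPM in low and 248 TPM in high glucose (0.65), while ERLEC1, the other lectin, stood at 96.7 and 108 TPM (-0.16). EDEM1 stood at 51.2 TPM in low and 27.7 TPM in high glucose (0.86) and EDEM2 at 73.4 and 52.5 TPM (0.48), but EDEM3 at 16.9 and 21.8 TPM (-0.35). All 3 EDEM proteins trim mannose from glycans. The derlins, which form the exit channel, stood at 133 TPM in low and 84.1 TPM in high glucose for DERL2 (0.65), and at 61.5 and 49.2 TPM for DERL1 (0.32).

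Further members of the machinery also pointed both ways. SELK, a selenoprotein of the ER membrane, stood at 122 TPM in low and 81.1 TPM in high glucose (0.59). FAF2, which recruits the extracting ATPase VCP, stood at 91.6 TPM in low and 70.6 TPM in high glucose (0.37), and VIMP (selenoprotein S, with the same role) at 112 and 98.0 TPM (0.19). UBE2J1, the ubiquitin-conjugating enzyme that works with SYVN1, was the lowest of the function by difference, at 60.4 TPM in low and 78.8 TPM in high glucose (-0.38). WFS1 (wolframin), an ER membrane protein that presents ATF6 to SYVN1, was level at 104 and 108 TPM (-0.05).

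Translocation genes differed least. Their median was 0.12 over 11 genes, none met the 2-fold rule in either direction, and their range ran from -0.46 to 0.42. Over all genes compared, 3.65% were at least 2-fold higher and 1.10% at least 2-fold lower. Of the 11, 6 (54.5%) lay above 0, near the share of all genes compared (54.6%). The count was 6 or 7 under the 4 scalings tried and 9 with the median of genes of like mean TPM subtracted. The channel itself was uneven. SEC61A1, the pore subunit, stood at 406 TPM in low and 323 TPM in high glucose (0.33), but the small subunits SEC61B at 442 and 507 TPM (-0.20) and SEC61G at 280.4 and 387 TPM (-0.46). SEC62 (94.1 TPM in low and 85.4 TPM in high glucose, 0.14) and SEC63 (75.0 and 57.1 TPM, 0.39) assist the channel after translation. SRPR, the receptor subunit that docks ribosomes with the signal recognition particle, stood at 179 TPM in low and 133 TPM in high glucose (0.42), and its membrane anchor SRPRB at 72.5 and 75.6 TPM (-0.06).

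The 4 subunits of the translocon-associated TRAP complex stayed together. SSR1 stood at 55.7 TPM in low and 56.0 TPM in high glucose, SSR2 at 431 and 464 TPM, SSR3 at 129.8 and 119 TPM, and SSR4 at 191 and 175 TPM. Their differences ran from -0.11 to 0.12, and they summed to 808 TPM in low and 815 TPM in high glucose. HSPA5, which seals the channel and pulls on entering chains, stood at 5.70 times the level of SEC61A1 in low glucose and at 1.81 times in high glucose.

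By summed TPM folding genes again stood highest relative to high glucose, and translocation genes lowest. Folding genes summed to 12126 TPM in low and 5761 TPM in high glucose, a ratio of 2.10. Degradation genes summed to 1787 TPM in low and 1183 TPM in high glucose (1.51), and oxidation genes to 4285 and 3009 TPM (1.42). Translocation genes summed to 2357 TPM in low and 2383 TPM in high glucose (0.989). The 59 genes together were 8219 TPM higher in low glucose, and CALR, HSP90B1 and HSPA5 made up 61.3% of that.

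**Figure D2:**
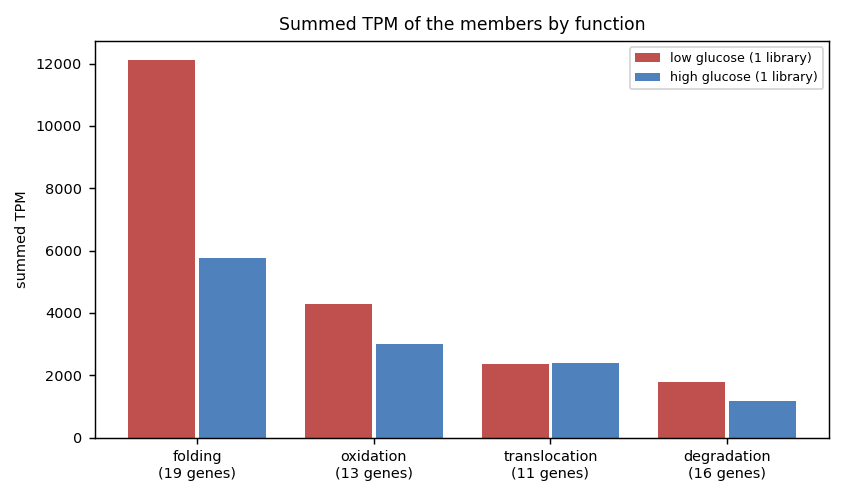
Summed TPM of the genes of each function, with the low glucose library on the left of each pair and the high glucose library on the right (1 library each, no error bars). Folding genes stand at 12126 against 5761 TPM, and translocation genes at 2357 against 2383 TPM.

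Promoter windows were found for 53 of the 59 genes, some with several annotated starts. An ERSE or ERSE-II, elements known to bind ATF6 together with NF-Y, lay in a window of 10 of them, beside 44 of all 27305 genes with a window (0.161%). Both elements were defined in earlier work on promoters of ER stress genes, HSPA5, HSP90B1 and CALR among them. Their presence at such members is therefore background and not a result. The contrast below between members with and without an element cannot be told apart from that origin. An ERSE lay at HSPA5, HSP90B1, CALR, CANX, CRELD2, ERO1LB and PDIA6, and an ERSE-II at HYOU1, SDF2L1 and HERPUD1. By function these are 6 of 17 folding genes with a window, 3 of 12 oxidation genes, 1 of 14 degradation genes and 0 of 10 translocation genes. The 10 genes had a median difference of 1.08, from 0.61 to 2.01, and 7 of them were at least 2-fold higher. The 43 genes without the element, meaning no exact match in any window, had a median of 0.33, from -0.46 to 1.33. Of them 5, DNAJB9, HSPA13, CRELD1, SYVN1 and SEL1L, were at least 2-fold higher. PDIA3, also at least 2-fold higher, had no window found and is in neither set. Sites that depart from the pattern were not searched. The ranges overlap, and members do not stand for replicates, so this is a description.

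Among genes outside the 59, medians with and without the element were alike. Of the 13687 compared genes outside the 59, only those with a window under the identical symbol entered. The 20 compared genes with an ERSE or ERSE-II had a median of 0.030, with 10 above 0 and 1 at least 2-fold higher (5.00%). The 9849 genes without it had a median of 0.029, with 5186 above 0 and 323 at least 2-fold higher (3.28%). The UPRE, a core site of XBP1 and ATF6, lay in a window of 8 of the 53 genes, beside 0.927% of all genes with a window. These 8 had a median difference of 0.12, with 1 at least 2-fold higher. The 45 members without a UPRE had a median of 0.61, with 11 at least 2-fold higher. The CARE, a site of ATF4 with C/EBP partners, lay at HERPUD1 alone of the 53 (1.08% of all genes).

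**Figure D3:**
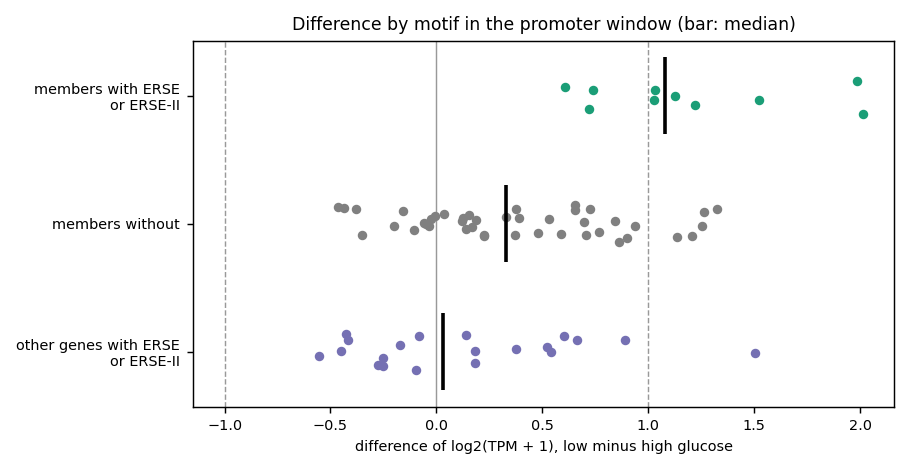
Difference of log2(TPM + 1) between low and high glucose (low minus high) for the 10 members with an ERSE or ERSE-II in the promoter window, the 43 members without, and the 20 other genes with one (points: genes; bar: median). The medians are 1.08, 0.33 and 0.030.

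Other genes of the same pathway, listed by function, differed less. Over the 95 that were compared the median was 0.05. At least 2-fold higher was 1 (1.05%), beside 3.65% of all genes, and 2 were at least 2-fold lower, beside 1.10%. Members and lists were chosen with earlier results of these data known. The contrast between them therefore cannot be told apart from that choice. In folding (20 genes, median 0.20), CLGN, the calnexin relative known from testis, stood at 228 TPM in low and 89.2 TPM in high glucose (1.34). The most abundant, FKBP11 and the collagen chaperone SERPINH1, stood at 309 and 249 TPM and at 299 and 196 TPM in low and high glucose. In oxidation (14 genes, median 0.00) none met the rule, with TMX2 at 578 TPM in low and 470.2 TPM in high glucose and PRDX4 at 233 and 241 TPM. In translocation (32 genes, median -0.05) none met it either, with SRP9 at 369 TPM in low and 578 TPM in high glucose and TRAM1 at 408 and 366 TPM. In degradation (29 genes, median 0.09), SVIP, an inhibitor of ERAD, stood at 25.3 TPM in low and 66.9 TPM in high glucose (-1.37), and the ligase RNF5 at 2.75 and 6.91 TPM (-1.08). RNF5 has a near-identical pseudogene, so its level is uncertain. VCP, the ATPase that extracts substrates, stood at 275 TPM in low and 361 TPM in high glucose, and AUP1 at 214 and 172 TPM.

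Beside the ER genes, 28 cytosolic chaperones had a median of -0.34. Of these, 5 (17.9%) lay above 0, beside 54.6% of all genes compared, and 2 (7.14%) were at least 2-fold higher, beside 3.65%. These 2 were the near-identical HSPA1A (196 TPM in low and 66.3 TPM in high glucose) and HSPA1B (113 and 31.7 TPM), which share reads. HSP90AA1 stood at 1240.2 TPM in low and 1608 TPM in high glucose, and HSPA8 at 1001 and 1303 TPM, so that HSPA5 outranked both in low glucose only. Mitochondrial chaperones had a median of 0.07 over 8 genes, with HSPD1 at 847 TPM in low and 883 TPM in high glucose and HSPE1 at 451 and 679.9 TPM. Subunits of the oligosaccharyltransferase, which attaches N-glycans beside the translocon, had a median of 0.24 over 11 genes, with RPN2 at 752 TPM in low and 537 TPM in high glucose and TMEM258 at 619.8 and 609 TPM. COPII genes, which carry cargo out of the ER, had a median of -0.21 over 16 genes, with SURF4 at 398 TPM in low and 471 TPM in high glucose and LMAN2 at 316 and 269 TPM. None of these 3 lists held a gene past 2-fold, beside 3.65% of all genes higher and 1.10% lower. The differences between lists were not tested.

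**Figure D4:**
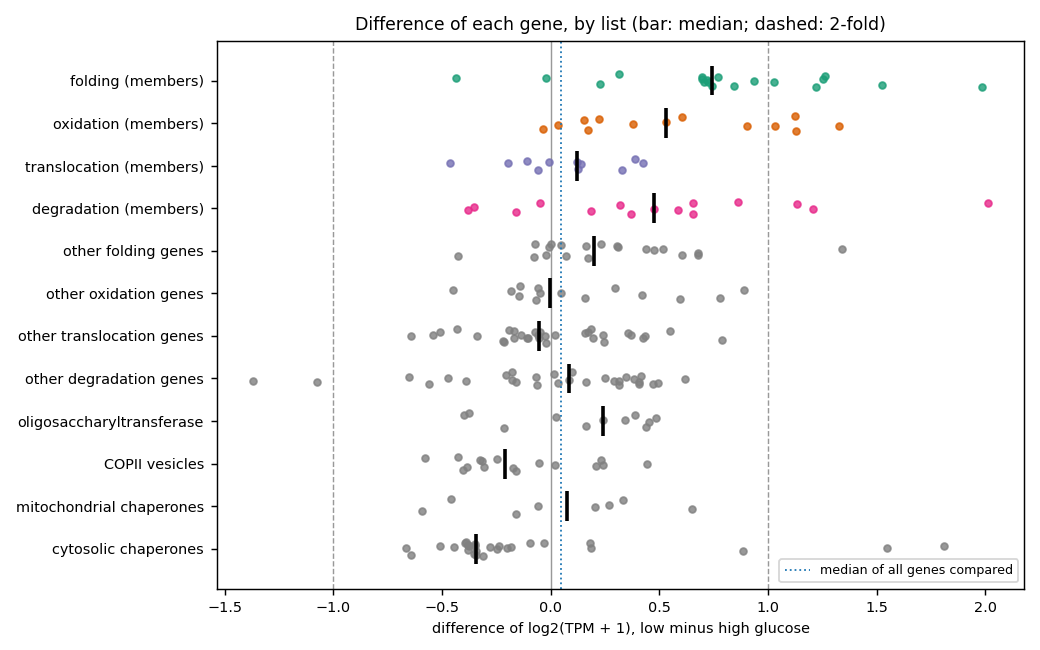
Difference of log2(TPM + 1) between low and high glucose (low minus high) for each compared gene (points) by list, with the median of each list (black bar), 2-fold (dashed) and the median of all genes (dotted). Folding, oxidation and degradation members have medians of 0.74, 0.53 and 0.48, against -0.34 for cytosolic chaperones.

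Level and transcript length moved with the difference over all genes. In the group of genes near 102 TPM, which is also the median level of the 58, the median was -0.12, against 0.20 in the group near 2.00 TPM. By transcript length the median was -0.15 in the group near 877 bases and 0.20 in the group near 11235 bases. Within the 58 genes, the 19 shortest had a median of 0.31, the next 19 of 0.42 and the 20 longest of 0.72, beside -0.05, 0.02 and 0.09 for all genes of those lengths. With the median of genes of like length subtracted, SEC61G stood at -0.31 and SEC61B at -0.05, and 13 genes were past 2-fold, with ERO1LB falling short (0.93) and MANF newly past (1.01).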

How the data were processed

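RNA-seq values of 1 Huh7 library per medium were used. The deposited values are TPM with 2 decimals per gene symbol and hg19 interval, per the file headers. Per the submitters' processing notes, the authors used cutadapt and RSEM 1.2.21; RSEM divides reads that map to several genes between them. The sources used here do not give the aligner, annotation, strand setting or read numbers, so depth and counting error are unknown. Because the total of TPM is fixed, a rise in some genes depresses the rest.

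Groups came from the treatment labels. The planned design held: genes with a mean of at least 1 TPM were set side by side on log2(TPM + 1), and no test was made. The members and lists were chosen with earlier results of these data known. Smaller groups within or across functions (J proteins, TRAP, calnexin cycle, disulfide isomerase family) were formed from known roles after the values were seen. Each member is named with its values; of the other pathway and chaperone lists, genes past 2-fold (at most 4) and the 2 with the highest mean; cell type markers are given mainly as sums, with those past 2-fold named. Of the listed genes, 1 had no matching entry. Protein tails, also planned, were not analysed here.

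Promoters came from RefSeq (GRCh38.p14), with older symbols matched through RefSeq synonyms, and a gene counted as holding a motif when any of its windows did. Transcript length is the longest coding transcript in GENCODE release 29, matched for 90.7% of genes compared. Alternatives were 4 scalings, subtraction of the median of genes of like level, pseudocounts of 0.1 and 5, no filter or a mean of 10 TPM, and rules of 1.5-fold and 3-fold; subtraction by length was added after seeing the data. The calculation was tested on simulated data, made by putting known fold changes into the high glucose values. That test does not measure the error between the 2 libraries. Python 3.11.15, pandas 2.3.3 and numpy 2.4.6 were used.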

Additional observations from a re-analysis of the deposited data

How the results depend on the processing

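Under every setting tried, 11 members stayed at least 2-fold higher in low glucose: HSPA5, HYOU1, DNAJB9, HSPA13, HSP90B1, CRELD1, CRELD2, PDIA3, HERPUD1, SYVN1 and SEL1L (thresholds aside). Of 579 member differences recomputed under 10 settings, 567 kept their side of the 2-fold rule, 9 fell short of it (CALR under 3 settings, ERO1LB under 6), 3 newly passed it (MANF under 2 and PDIA4 under 1) and none reversed. A 1.5-fold rule gave 28 members higher and a 3-fold rule gave 2, and under both none was lower. Subtracting the median of genes of like mean TPM moved the folding median to 0.87 and the translocation median to 0.26. Subtracting that of genes of like transcript length moved the translocation median to 0.021. The other medians stayed within 0.1 of the values reported. The cause of these shifts beyond the subtraction itself was not tested. No paired analysis was possible because each medium has 1 library. Differences between these 2 libraries may reflect the medium, the culture or the library, which cannot be told apart.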

Other observations

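Of the 20 compared genes outside the members with an ERSE or ERSE-II in a promoter window, a few belong to the same stress pathway and were picked out after their values were seen. FICD, which attaches AMP to BiP and inactivates it, stood at 13.4 TPM in low and 4.07 TPM in high glucose, and was the 1 gene of the 20 past 2-fold. XBP1, the transcription factor whose mRNA is spliced by IRE1, stood at 1053 TPM in low and 812 TPM in high glucose (log2 difference 0.37). Its gene-level value does not separate the spliced form. NUCB1, a calcium-binding protein of the Golgi, stood at 209 TPM in low and 137 TPM in high glucose (0.60). SERP1, a small protein associated with the translocon, stood lower in low glucose, at 80.1 TPM against 108 TPM in high glucose (-0.43).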
